A study of Mus musculus with 31 samples.

Results

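The comparison described here is the difference between 2 changes: how far each gene moved from day 0 to day 11 in Nos3-/- cells, minus how far it moved in control cells, called the difference in change below. All 31 arrays of the series enter it, in 4 groups given by the sample titles. They are 10 control and 6 Nos3-/- arrays of day 0, and 9 control and 6 Nos3-/- arrays of day 11. Of 45101 probe sets, 34958 carried 1 gene symbol and were used, and they stood for 18194 genes, each read from its probe set with the highest mean. Day 0 samples are induced pluripotent stem cells, reprogrammed by Sendai virus. Their source was tail-tip fibroblasts taken from adult males, and they were grown on inactivated mouse embryonic fibroblasts (feeder cells). Day 11 samples are embryoid bodies, aggregates formed in microwells that differentiated with no added lineage factor named. Control cells came from wild type CD1 mice and Nos3-/- cells from the strain B6.129P2-Nos3tm1unc/J, so genotype and strain cannot be told apart in any value given here. How many mice, clones or cultures stand behind a group is not stated in the labels. All p-values therefore rest on array-to-array spread alone, and that spread may be technical. The day 0 RNA holds an unknown share of feeder RNA. The fibroblast markers Col1a2, Thy1 and Dcn had median log2 levels of 13.46, 10.04 and 9.46 on control day 0 arrays. Their control medians at day 11 were lower, at 11.80, 6.53 and 8.60. Col1a1, Col3a1 and Postn went the other way in control, from 10.09, 11.86 and 10.39 to 11.26, 12.30 and 11.92. These markers alone therefore do not measure the feeder share.

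Nos3 encodes endothelial nitric oxide synthase, which makes the nitric oxide that relaxes vessels and acts in the developing heart. When pluripotent cells aggregate, they leave the naive state, pass through a formative epiblast-like state, and form the germ layers, while an outer layer becomes visceral endoderm, the tissue that makes yolk-sac serum proteins. Lefty1 and Fgf5 mark early steps of this course, and Hox, valve and vessel genes mark later ones.

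Of the 18194 genes, 225 passed the difference in change (1.24%; limma, Benjamini-Hochberg adjusted p under 0.05), 95 with a more positive change in Nos3-/- cells (0.522%) and 130 with a more negative one (0.715%). In 90 of them the difference was at least 1 on the log2 scale (0.495%), and an unadjusted p under 0.05 was reached by 3085 genes. The median difference over all genes was -0.02, with a median standard error (SE) of 0.15. Higher genes made up 42.2% of the 225. Both Nos3-/- arrays numbered 3 had low mean correlations with their own groups, 0.971 (day 0) and 0.961 (day 11), against 0.975 to 0.991 for the other 29 arrays. At day 0 replicate 3 hardly stood apart, since Nos3-/- replicate 5 was close to it at 0.975. Without these 2 arrays all 225 genes still passed, among 1315. The count rested on single arrays: without Nos3-/- day 0 replicate 3 it was 745, without replicate 2 it was 112, without replicate 5 it was 88 and without replicate 6 it was 119. Without Nos3-/- day 11 replicates 1, 2, 3 or 6 it was 121, 149, 620 or 148. Without control day 0 replicates 2 or 6 it was 147 or 143, and without control day 11 replicate 8 it was 134. In all 31 omissions of 1 array, 82 of the 225 genes (36.4%) kept their call. With the mean of the fibroblast and feeder list as a covariate among day 0 arrays, a setting added after the data were seen, 29 genes passed, 23 of them among the 225. Of the 49 passing genes that the naming rule allows, 10 passed with that covariate, namely Adamts20, Hddc3, Hey2, Hoxb6, Hoxd1, Lefty1, Plagl1, Postn, Snai2 and Tdo2. The other 39 did not. That list holds Postn, and its mean was lower in Nos3-/- at day 0, so the covariate can absorb part of the genotype difference.

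The 225 genes reached their difference in several ways, although the 4 component comparisons share arrays with it and with each other and are given only side by side. Background shares of genes passing were 34.2% for the change in control, 31.1% for the change in Nos3-/-, 16.6% for the genotype difference at day 0 and 9.7% for that at day 11. By direction, 16% of all genes rose and 18.2% fell in control, and 13% rose and 18.1% fell in Nos3-/-. Among the 130 lower genes, 63 rose in control cells while the change in Nos3-/- did not pass, 43 fell in Nos3-/- cells while the change in control did not pass, 16 rose in control and fell in Nos3-/-, and 8 rose in both. Among the 95 higher genes, 39 fell in control while the change in Nos3-/- did not pass, and 26 rose in Nos3-/- while the change in control did not pass. A further 16 fell in both, 9 fell in control and rose in Nos3-/-, and 5 rose in both. A genotype difference passed at day 11 and not at day 0 in 123 of the 225 genes (54.7%), at day 0 and not at day 11 in 71 (31.6%), on both days in 27 and on neither in 4. The control and Nos3-/- arrays did not overlap in 81 of the 225 at day 11 (36%, background 2.6%) and in 30 at day 0 (13.3%, background 1.92%). The 225 were selected on the day 11 genotype difference minus the day 0 one, which favours separated arrays. These shares are therefore a description. For 105 of the 225 genes the array holds further probe sets, and 169 of these 192 probe sets had a difference of the same sign.

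**Figure D1:**
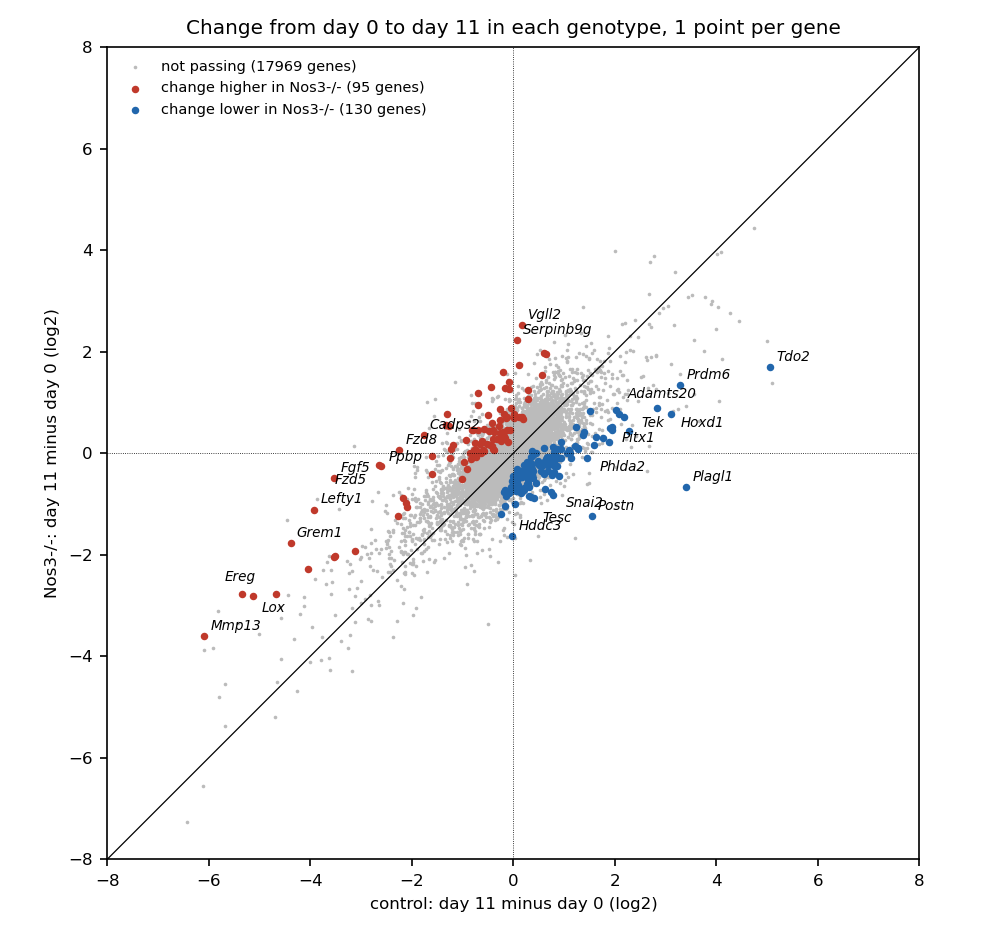
Each point is a gene, with its log2 change from day 0 to day 11 in control cells on the x axis and in Nos3-/- cells on the y axis, and the line marks equal change. The 95 genes in red lie above the line and the 130 in blue below it, with Mmp13 at -6.10 and -3.60 and Tdo2 at 5.05 and 1.70 near the ends.

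Genes that rose in control embryoid bodies and lagged in Nos3-/- ones led the lower group. Plagl1, an imprinted zinc finger gene that acts in growth control, had the largest difference of the 225 genes in either direction. It lies in a stretch of chromosome 10 (Shprh to Dse). Of the 50 genes there at or above the median level, 46 were lower in Nos3-/- at day 0 and 48 at day 11. Plagl1 ran from 9.25 to 10.11 with a median of 9.78 on control day 0 arrays. On Nos3-/- day 0 arrays it ran from 6.64 to 8.26 with a median of 7.21. The day 11 levels ran from 11.70 to 14.03 in control (median 13.12) and from 4.84 to 7.66 in Nos3-/- (median 6.87). The genotypes did not overlap on either day, and only the control level went up. Plagl1 rose by 3.40 in control, its change in Nos3-/- was -0.67 and did not pass, and the difference was -4.07 (SE 0.50, limma adjusted p = 3.67e-05). Its other 2 probe sets differed by -1.55 and -2.95.

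Hoxd1, a homeobox gene of the trunk axis, ran from 3.24 to 3.81 on control and from 3.51 to 4.59 on Nos3-/- day 0 arrays. At day 11 it reached 5.97 to 7.81 in control (median 6.56) and 3.03 to 5.60 in Nos3-/- (median 4.59), with no overlap. Its difference was -2.34 (SE 0.40, limma adjusted p = 0.00272). Of 25 measured Hox genes, 3 passed (12%, against 1.24% of all genes), all lower: Hoxd1, Hoxb6 (-1.29) and Hoxc4 (-0.93). Their list had a median difference of -0.42, against -0.02 over all genes, and 22 members lay below 0. Hoxc4 rose by 0.73 in control and changed by -0.20 in Nos3-/-, whereas Hoxb6 fell by 0.89 in Nos3-/- and changed by 0.40 in control, which did not pass. The Hoxb6 call was lost in 4 omissions of 1 array, with adjusted p up to 0.0625.

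Adamts20, a secreted protease of the matrix that helps pigment cell precursors migrate, was about level at day 0, with medians of 3.98 in control and 3.94 in Nos3-/-. By day 11 it ran from 5.98 to 7.46 in control and from 4.11 to 5.38 in Nos3-/-, apart in every array. It rose in both genotypes, by 2.83 and 0.89, and differed by -1.94 (SE 0.27, limma adjusted p = 0.000262). Prdm6, a transcriptional repressor of smooth muscle and vascular precursors, showed the same order, with 9.38 to 10.57 in control and 6.25 to 8.69 in Nos3-/- at day 11. Prdm6 rose by 3.28 and 1.33, and the difference was -1.95 (SE 0.36, limma adjusted p = 0.00696). Tek, the angiopoietin receptor of endothelial cells, rose by 2.28 in control, from a median of 5.89 to 8.30, and its change of 0.44 in Nos3-/- did not pass. Tek arrays of the genotypes overlapped at day 11, at 7.31 to 8.71 and 6.52 to 7.42, and the difference was -1.84 (SE 0.37, limma adjusted p = 0.011). It was the 1 passing member of 33 endothelial genes (3.03%, against 1.24% of all genes). The endothelial receptors Kdr and Cdh5 differed by -0.26 and 0.37 without passing (limma adjusted p = 0.827 and 0.733).

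Further lower genes rose in control alone. Pitx1, a homeobox gene of the hindlimb and mouth, differed by -1.66, and its arrays at day 11 lay at 6.76 to 9.00 in control and 5.58 to 6.52 in Nos3-/-. Fgfr3, a fibroblast growth factor receptor, differed by -1.47 (SE 0.26, limma adjusted p = 0.00411), and Csrp2, a LIM protein of smooth muscle, by -1.18. The other Fgfr3 probe set differed by -0.31, with a change of 0.12 in control. Phlda2, an imprinted gene that limits placental growth, ran from 11.47 to 12.68 in control at day 11 and from 10.05 to 11.36 in Nos3-/-, and differed by -1.54 (SE 0.30, limma adjusted p = 0.00932). Plagl1 and Phlda2 were the 2 passing members of 35 imprinted genes (5.71%, against 1.24% of all genes), whose median difference was -0.06. Each of these 5 genes kept its call in all 31 omissions of 1 array.

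**Figure D2:**
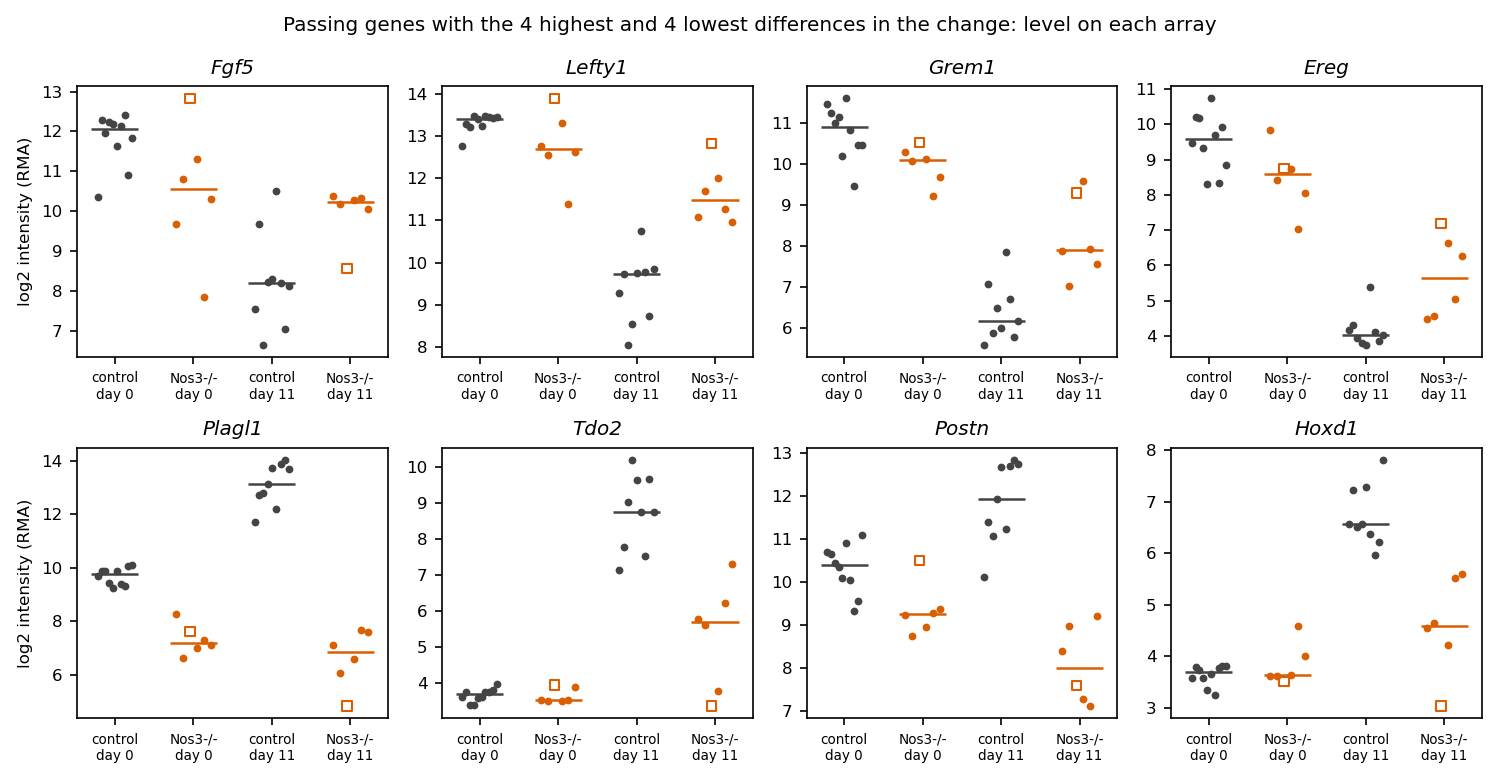
Log2 RMA levels of the genes with the 4 highest and the 4 lowest differences in change among the 225 that passed, with 1 point per array, a line at the group median and open squares for Nos3-/- replicate 3. Plagl1, Postn and Hoxd1 are apart between genotypes at day 11, whereas Fgf5 and Grem1 overlap there.

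A second set fell in Nos3-/- cells. Postn, periostin, a matrix protein of fibroblasts and heart valve cushions, moved in opposite directions. On day 0 arrays it ran from 9.32 to 11.10 in control (median 10.39) and from 8.73 to 10.50 in Nos3-/- (median 9.25). At day 11 the control range was 10.12 to 12.84 (median 11.92) and the Nos3-/- range 7.11 to 9.21 (median 8.00). The groups overlapped at day 0 and were apart at day 11. Postn rose by 1.54 in control and fell by 1.25 in Nos3-/-, a difference of -2.79 (SE 0.55, limma adjusted p = 0.00965). With the fibroblast covariate, whose list holds Postn itself, the difference was -3.60 (limma adjusted p = 0.00816). Snai2, a repressor of epithelial genes that acts when cushion and neural crest cells leave an epithelium, rose by 0.78 in control and fell by 0.82 in Nos3-/-. Its difference was -1.60 (SE 0.40, limma adjusted p = 0.0425), and its call was lost in 16 of the 31 omissions of 1 array, with adjusted p up to 0.0824. At day 11 Snai2 lay at 10.15 to 11.49 in control and at 7.81 to 9.67 in Nos3-/-, with no overlap. Tesc, a calcium-binding protein, was already 1.76 higher in Nos3-/- at day 0 and met control at day 11 (medians 7.85 and 8.03). Its difference of -1.51 (limma adjusted p = 0.0451) was lost in 20 of the 31 omissions, with adjusted p up to 0.104.

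Hddc3, a hydrolase related to bacterial stringent-response enzymes, changed by -0.03 in control and fell by 1.63 in Nos3-/-. Its levels were 7.45 to 8.22 in control and 6.42 to 7.32 in Nos3-/- at day 0, and 7.47 to 8.31 and 4.85 to 5.71 at day 11. The genotypes were apart on both days, and the difference was -1.60 (SE 0.22, limma adjusted p = 0.000259). The other Hddc3 probe set differed by -0.00. En2, a homeobox gene of the midbrain and hindbrain, fell by 0.86 in Nos3-/- from a day 0 level 1.02 above control, and its difference was -1.20 (limma adjusted p = 0.0197). Trim12a, an antiviral-type ring finger gene, was apart between genotypes on both days, at 2.94 to 3.61 against 6.25 to 7.00 at day 0. It fell by 0.73 in Nos3-/-, and the difference was -0.74 (limma adjusted p = 0.0271), lost in 3 omissions with adjusted p up to 0.0615. The other Trim12a probe set differed by 0.07, with a change of -0.02 in Nos3-/-.

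Part of the lower group lay together on chromosome 10, a pattern that was looked for after the values were seen. The 9081 genes at or above the median level of 7.42 were put in chromosomal order (from the gene table of assembly GRCm38.p6), and the median over each run of 21 neighbours was taken. The lowest of 8681 running medians fell on chromosome 10 for the difference in change (-0.44, centred on Echdc1), for the day 0 genotype difference (-0.66, centred on Adat2) and for the day 11 genotype difference (-0.99, centred on Ptprk). Over all 8681 running medians, chromosome 10 included, the 1st to 99th percentile ran from -0.27 to 0.17 for the difference in change. At day 11 it ran from -0.22 to 0.11. The highest running median for the difference in change was 0.32, on chromosome 12. The longest stretch in which the day 11 running median stayed under its 1st percentile held 50 of these genes, from Shprh to Dse. In it 48 of 50 genes were below 0 at day 11, with a median of -0.87, which puts them at 54.5% of the control level. At day 0, 46 of 50 were below 0, with a median of -0.49 (71.1% of control). On the rest of chromosome 10 (395 genes) the medians were -0.02 at day 11 and -0.03 at day 0.

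Single arrays showed the same step. The median of the 50 genes, relative to the control mean of the same day, ran from -0.64 to -0.25 on Nos3-/- day 0 arrays and from -0.99 to -0.53 on Nos3-/- day 11 arrays. Control arrays ran from -0.09 to 0.09 and from -0.07 to 0.11, so the genotypes did not overlap on either day. The shallowest arrays were Nos3-/- day 0 replicate 6 (-0.25) and day 11 replicate 3 (-0.53). Over all other genes of the scan the array medians lay between -0.08 and 0.04. The median difference in change over the 50 genes was -0.31, with 42 of 50 below 0. The stretch was bounded by its low day 11 genotype values, which favours a wider gap at day 11 and negative differences in change inside it, so these values and the counts of passing genes in it are a description. Counting every tested gene between Shprh and Dse, 11 of 104 passed the difference (10.6%, against 1.18% elsewhere), all of them lower: Plagl1, Phactr2, Pex3, Adat2, Vta1, Heca, Ccdc28a, Olig3, Trmt11, Hey2 and Tpd52l1. All but Plagl1 and Hey2 are named here for their position after their values were seen. Trmt11, a tRNA methyltransferase, differed by -0.93 (limma adjusted p = 0.000323), Heca by -0.77 (0.000518), and Pex3, a peroxisome assembly factor, by -0.97 (0.00909). Adat2, a tRNA deaminase, was lower on both days, by 1.43 at day 0 and 2.37 at day 11. The call of Hey2, a Notch target of the heart and arteries, belongs to the same stretch: it rose by 2.18 in control and by 0.71 in Nos3-/-, with a difference of -1.47 (SE 0.28, limma adjusted p = 0.00874). Hey2 ran from 6.48 to 7.44 in control and from 4.17 to 5.87 in Nos3-/- at day 11. Genomic DNA of these cells was not analysed here, and the copy number of the stretch was not tested.

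**Figure D3:**
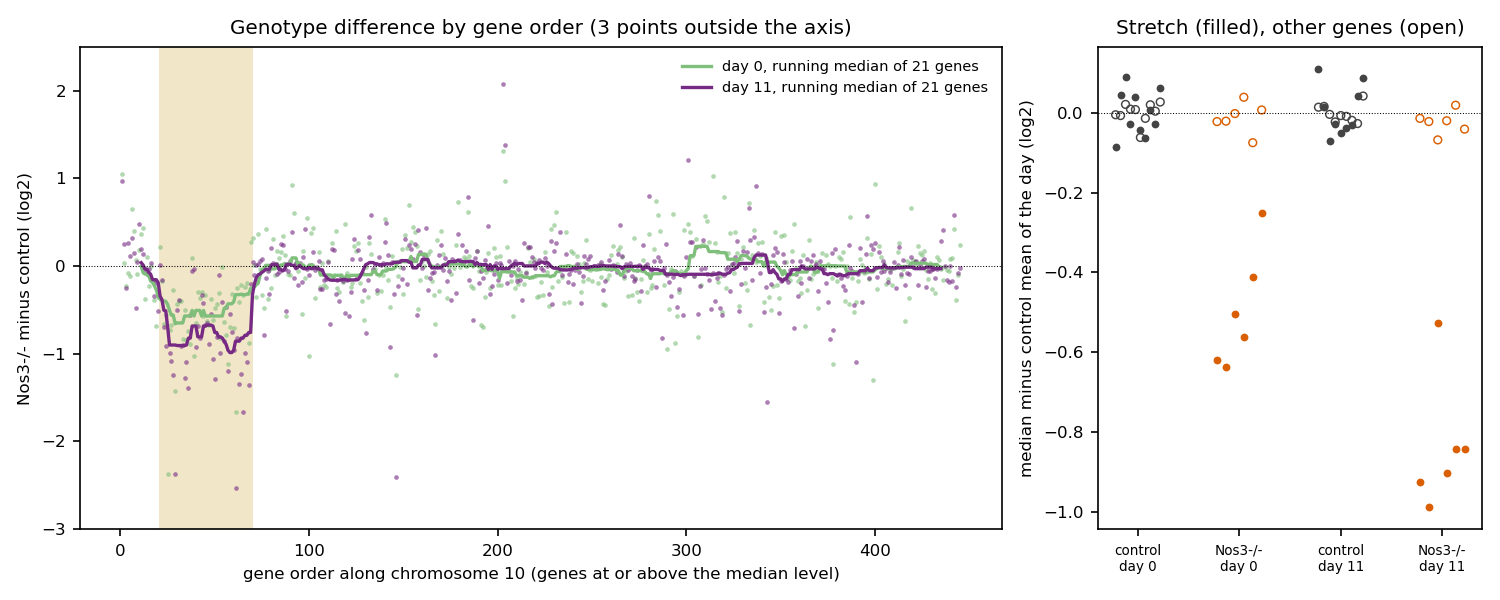
Left, the log2 genotype difference of each gene at or above the median level against gene order on chromosome 10, at day 0 (green) and day 11 (purple), with running medians over 21 genes and the stretch from Shprh to Dse shaded; 3 points lie outside the axis. Right, per-array medians of the 50 genes of the stretch (filled) and of all other genes of the scan (open), relative to the control mean of the day: filled Nos3-/- points lie between -0.99 and -0.25 and open points between -0.08 and 0.04.

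Visceral and yolk-sac endoderm genes had the lowest median of the 37 gene lists, -1.20 over 31 genes against -0.02 over all genes, with 29 of 31 below 0. Only Tdo2 passed (3.23%, against 1.24% of all genes), a tryptophan-degrading enzyme of liver-type cells. Tdo2 ran from 3.40 to 3.99 in control and from 3.50 to 3.95 in Nos3-/- at day 0. Its day 11 levels ran from 7.15 to 10.20 in control (median 8.76) and from 3.37 to 7.32 in Nos3-/- (median 5.70), with replicate 3 lowest and an overlap at the margin. It rose by 5.05 and by 1.70, a difference of -3.35 (SE 0.62, limma adjusted p = 0.00658) that was kept in all 31 omissions. The other 2 Tdo2 probe sets differed by -0.44 and -0.54.

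The serum proteins of the same layer lay in the same direction without passing. Afp, alpha-fetoprotein, ran from 7.35 to 13.67 in control at day 11 (median 10.42) and from 5.16 to 7.84 in Nos3-/- (median 6.52), after day 0 medians of 5.18 and 5.07. Its difference was -3.71 (SE 0.99, limma adjusted p = 0.0545). It passed without Nos3-/- day 0 replicate 3, control day 0 replicate 5 or control day 11 replicates 1, 2 or 6. Ttr, a thyroid hormone and retinol carrier, differed by -2.26 (adjusted p = 0.135), Apoa1, the main protein of high density lipoprotein, by -2.39 (0.16), Rbp4, the retinol-binding protein, by -2.38 (0.0982), and Amn, an uptake receptor subunit, by -2.30 (0.213). Control day 11 arrays spread widely in these genes, with replicate 4 highest and replicate 6 lowest in Afp, Ttr, Apoa1, Rbp4 and Amn alike. Nos3-/- day 11 replicate 3 was the lowest array of its group in the same 5 genes. The list mean per array ran from 7.20 to 10.39 in control and from 6.08 to 7.25 in Nos3-/- at day 11, and the list median was -0.15 when genes below the median level were left out. In these bulk samples, fewer cells of a type and less RNA per cell cannot be told apart. Of 21 blood and erythroid genes 0 passed by limma, with 16 below 0, 5 above 0 and a median of -0.14, and the embryonic globin Hbb-bh1 differed by -2.78 (adjusted p = 0.225). The alpha globin Hba-a2, which is not in that list, did pass. It ran from 5.96 to 7.06 in control and from 6.67 to 7.47 in Nos3-/- at day 0, and from 5.98 to 7.00 and from 5.72 to 6.58 at day 11, so the genotypes overlapped on both days. Hba-a2 fell by 1.01 in Nos3-/- and changed by 0.03 in control, a difference of -1.04 (SE 0.24, limma adjusted p = 0.0276) lost in 6 omissions with adjusted p up to 0.064. Its probe set may also read the near-identical alpha globin copy.

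**Figure D4:**
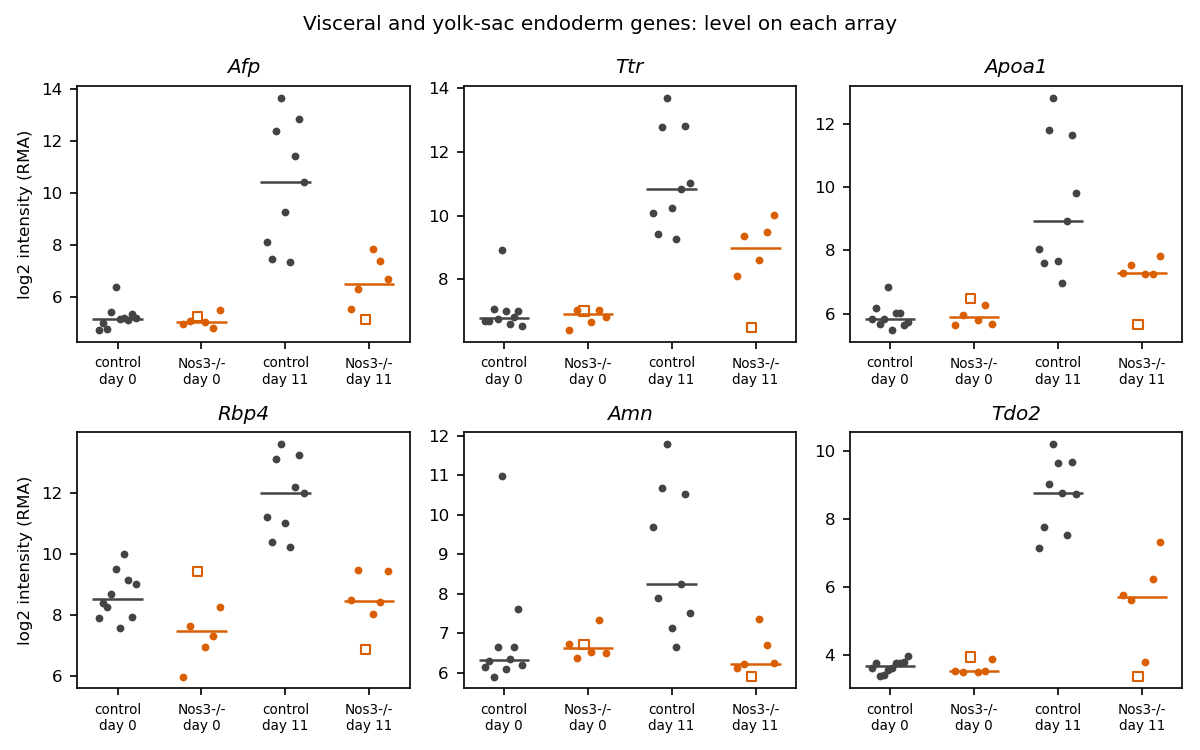
Log2 RMA levels of 5 markers of visceral endoderm and of Tdo2, with 1 point per array, lines at group medians and open squares for Nos3-/- replicate 3. Control day 11 arrays spread from 7.35 to 13.67 for Afp, and Nos3-/- arrays lie between 5.16 and 7.84.

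The highest differences among passing genes were those of Fgf5 and Lefty1, which both fell in control. Lefty1, a secreted Nodal inhibitor, ran from 12.75 to 13.48 in control (median 13.41) and from 11.38 to 13.89 in Nos3-/- (median 12.70) at day 0. Day 11 levels ran from 8.06 to 10.74 in control (median 9.74) and from 10.97 to 12.82 in Nos3-/- (median 11.49), with no overlap. Lefty1 changed by -3.93 in control and by -1.11 in Nos3-/-, a difference of 2.81 (SE 0.47, limma adjusted p = 0.00208) that was kept in all 31 omissions. The related Lefty2 and the ligand Nodal differed by 1.62 and 0.44 and did not pass (adjusted p = 0.206 and 0.32).

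Fgf5, a growth factor that marks the formative and primed epiblast, had the largest positive difference of the 225 passing genes, 3.05 (SE 0.76, limma adjusted p = 0.0423). Its day 0 range was 10.35 to 12.41 in control and 7.85 to 12.83 in Nos3-/-, and its day 11 range was 6.66 to 10.51 and 8.57 to 10.39, so the genotypes overlapped on both days. Nos3-/- replicate 3 was the highest array of its group at day 0 and the lowest at day 11, and the Fgf5 call was lost in 22 of 31 omissions of 1 array (adjusted p up to 0.0932). Pou3f1, a POU factor of the same state, fell by 0.69 in control and rose by 0.95 in Nos3-/-, and was apart at day 11, at 8.12 to 9.58 and 10.28 to 10.75. Its difference was 1.64 (limma adjusted p = 0.0408), lost in 17 omissions (adjusted p up to 0.0878). These were the 2 passing members of 17 formative and primed epiblast genes (11.8%, against 1.24% of all genes). The list median was 0.89, the highest of the 37 lists. Of 28 pluripotency genes 0 passed by limma, with a median of 0.01: the core factors Pou5f1, Nanog and Sox2 differed by 0.58, -0.20 and 0.17 (adjusted p = 0.263, 0.879 and 0.892).

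Wnt receptors of the Frizzled family were also among the higher genes. Fzd5 ran from 10.35 to 12.29 in control and from 8.84 to 12.64 in Nos3-/- at day 0, and from 8.23 to 9.72 and from 8.98 to 10.33 at day 11. It fell by 2.62 in control, its change of -0.25 in Nos3-/- did not pass, and the difference was 2.37 (SE 0.52, limma adjusted p = 0.0197), lost without Nos3-/- day 0 replicate 5 (adjusted p = 0.0531). Fzd8 differed by 2.31 (limma adjusted p = 0.0314), lost in 6 omissions with adjusted p up to 0.0764. In both receptors Nos3-/- replicate 3 was the highest array at day 0 and the lowest at day 11. The ligand Wnt6 rose in both genotypes, by 0.29 and 1.06, was apart at day 11 (6.67 to 6.88 against 6.95 to 8.07), and differed by 0.77 (SE 0.17, limma adjusted p = 0.0188). Fzd4 went the other way, rising by 1.50 in control and 0.83 in Nos3-/-, a difference of -0.67 (limma adjusted p = 0.0355) lost in 10 omissions with adjusted p up to 0.0764. Its further probe sets differed by -0.83 and 0.12. In all, 4 of 38 Wnt genes passed (10.5%, against 1.24%), with a list median of 0.07.

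Among epithelial genes 2 of 23 passed (8.7%, against 1.24% of all genes), both higher. The list median was 0.79, with 20 members above 0. Cdh1, E-cadherin, fell by 0.63 in control and changed by 0.01 in Nos3-/-, a difference of 0.64 (SE 0.16, limma adjusted p = 0.0406). Esrp1, an epithelial splicing factor, fell by 0.75 in control and was apart at day 11, at 9.41 to 10.28 and 10.43 to 10.94, with a difference of 0.96 (limma adjusted p = 0.0349). The Cdh1 and Esrp1 calls were lost in 18 and 10 of 31 omissions, with adjusted p up to 0.0953 and 0.0751. The keratins Krt8, Krt18 and Krt19 differed by 1.15, 0.88 and 1.48 and did not pass (adjusted p = 0.332, 0.441 and 0.212).

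Another part of the higher group consists of genes high on day 0 arrays that fell in both genotypes, and less in Nos3-/-. Grem1, a BMP antagonist, ran from 9.46 to 11.59 in control (median 10.90) and from 9.20 to 10.51 in Nos3-/- (median 10.09) at day 0. At day 11 it ran from 5.59 to 7.85 (median 6.16) and from 7.01 to 9.58 (median 7.89). It changed by -4.39 in control and -1.77 in Nos3-/-, a difference of 2.62 (SE 0.51, limma adjusted p = 0.00932). Ereg, an EGF-type growth factor, changed by -5.35 and -2.77 and differed by 2.58 (limma adjusted p = 0.024), lost without Nos3-/- day 0 replicates 5 or 6, with adjusted p up to 0.0609. Mmp13, a collagenase, changed by -6.10 and -3.60 and differed by 2.50 (limma adjusted p = 0.0396). Lox, which cross-links collagen, changed by -5.13 and -2.81 and differed by 2.32 (limma adjusted p = 0.0345). The Mmp13 and Lox calls were lost in 14 and 9 omissions, with adjusted p up to 0.0797 and 0.0709. Bgn, a matrix proteoglycan, and Cav1, the caveolar protein that binds nitric oxide synthase, differed by 1.91 and 1.76 (limma adjusted p = 0.0149 and 0.0181) and kept their calls in all omissions.

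The fibroblast and feeder list moved beside these genes. Its mean per array was 9.93 to 11.34 in control and 9.69 to 10.50 in Nos3-/- at day 0, and 8.48 to 9.63 and 7.98 to 8.97 at day 11. The median member had a genotype difference of -0.66 at day 0 and changes of -1.77 in control and -1.56 in Nos3-/-. Of 38 members 3 passed (7.89%, against 1.24% of all genes), Lox and Thbs2 higher and Postn lower, with a list median of 0.17. Thbs2, a matrix glycoprotein, differed by 1.49 (limma adjusted p = 0.0497), lost in 22 omissions with adjusted p up to 0.104. The defining collagens Col1a1, Col1a2 and Col3a1 differed by -1.65, 0.28 and -0.78 and did not pass (adjusted p = 0.13, 0.746 and 0.542). With the list mean as a covariate among day 0 arrays, Grem1 differed by 1.82 (adjusted p = 0.298), Ereg by 1.59 (0.503), Lox by 1.52 (0.535), Bgn by 1.12 (0.4), Cav1 by 0.99 (0.446) and Thbs2 by 0.56 (0.805). Lox, Thbs2 and Postn are themselves part of that mean. It also differed by genotype at day 0, averaging 10.74 in control and 10.06 in Nos3-/-. The covariate can therefore absorb part of the genotype difference, and whether feeder RNA lies behind these calls was not tested.

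Some genes rose in Nos3-/- cells while control cells showed no passing change. Vgll2, a cofactor of skeletal muscle and pharyngeal development, had medians of 6.18 and 6.28 at day 0. At day 11 it ran from 6.19 to 7.69 in control (median 6.37) and from 5.90 to 10.34 in Nos3-/- (median 9.31), with replicate 3 as the low array. It rose by 2.52 in Nos3-/-, a difference of 2.35 (SE 0.56, limma adjusted p = 0.0336), lost in 8 omissions with adjusted p up to 0.0738. Serpinb9g, a protease inhibitor, went from a median of 3.88 to 6.17 in Nos3-/- and from 3.83 to 4.04 in control, a difference of 2.16 (limma adjusted p = 0.00769). Cldn23, a tight junction claudin, rose by 1.59 in Nos3-/- and differed by 1.79 (limma adjusted p = 0.011). Pmaip1, the p53 target Noxa that promotes cell death, was apart at day 11, at 11.14 to 12.13 in control and 12.25 to 12.75 in Nos3-/-, and differed by 0.93 (SE 0.20, limma adjusted p = 0.0188). Of 20 p53 targets 2 passed (10%, against 1.24% of all genes), Pmaip1 higher and Sesn1 lower (-0.74, limma adjusted p = 0.0424, lost in 17 omissions with adjusted p up to 0.0926), and the list median was 0.30.

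Passing genes of the heart lists lay in the valve, cardiac transcription factor, outflow tract and epicardium lists, and no contractile gene passed. Of 41 contractile and membrane genes 0 passed by limma, with a median of -0.10: cardiac troponin T, Tnnt2, differed by -0.29 (adjusted p = 0.911), the atrial light chain Myl7 by 0.46 (0.838) and the heavy chain Myh7 by -0.92 (0.637). Tnnt2 had medians of 9.82 in control and 10.12 in Nos3-/- at day 11, after 5.44 and 4.89 at day 0. Of 33 valve and cushion genes 3 passed (9.09%, against 1.24% of all genes), Postn, Snai2 and Hey2, all lower, with a list median of -0.02. Among 26 cardiac transcription factors 2 passed (7.69%, against 1.24% of all genes). Irx5, a homeobox gene of cardiac repolarization, was the higher and Hey2 the lower. Irx5 rose by 1.31 in Nos3-/- from a day 0 level 1.04 below control, a difference of 1.76 (SE 0.41, limma adjusted p = 0.0274), lost in 3 omissions with adjusted p up to 0.064. Sema3c, a guidance cue of the outflow tract, fell by 1.28 in control and was apart at day 11, at 6.93 to 8.40 and 9.63 to 10.87. Its difference of 1.80 (SE 0.45, limma adjusted p = 0.0418) was lost in 17 omissions, with adjusted p up to 0.0885. It was the 1 call among 19 second heart field and outflow tract genes (5.26%, against 1.24% of all genes). The other Sema3c probe set differed by 0.50. The related Sema3d, of the epicardium list, rose by 1.97 in Nos3-/- and 0.59 in control. Its difference was 1.38 (limma adjusted p = 0.0267), lost in 3 omissions with adjusted p up to 0.0605. The other Sema3d probe set differed by 0.35.

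Nos3 itself did not pass, although some alternative settings changed that. It ran from 6.36 to 7.05 in control and from 6.73 to 7.13 in Nos3-/- at day 0, and from 6.76 to 7.43 and from 6.70 to 7.06 at day 11, overlapping on both days. Its difference was -0.51 (SE 0.15, limma adjusted p = 0.0861). It passed without Nos3-/- day 0 replicate 3 (-0.55, adjusted p = 0.0419), without both Nos3-/- arrays numbered 3 (-0.56, 0.0323), with array weights (-0.58, 0.0116) and with the replicate number within a genotype as a block (-0.47, 0.0397). Since no source used here says which part of the transcript its probes read, the level checks nothing about the allele. Among 24 nitric oxide signalling genes Cav1 alone passed (4.17%, against 1.24% of all genes), with a list median of 0.01.

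Across the 37 lists, 25 held at least 1 passing gene, 12 held none, and 27 had a median within 0.2 of 0. In 19 of them the median moved by more than the spread between arrays in at least 1 alternative setting, mostly when genes below the median level were left out or with the fibroblast covariate. The Hox median was -0.84 and the valve median -0.39 with that covariate. The formative epiblast, epithelial and p53 medians moved by less than that spread in every setting that gave 1 value per gene. Germline genes had a median of -0.39 and oxidative phosphorylation genes one of -0.17, with 18 of 21 and 36 of 41 below 0. Of them 0 and 1 passed (0% and 2.44%, against 1.24% of all genes). The passing one was Ndufs8, a complex I subunit, at -0.49 (limma adjusted p = 0.024, lost in 2 omissions with adjusted p up to 0.0583). Igfbp2, a carrier of insulin-like growth factors, was the 1 passing gene of 18 in the IGF system (5.56%, against 1.24% of all genes). It differed by 0.68 (limma adjusted p = 0.0462), lost in 23 of 31 omissions with adjusted p up to 0.0887. Of the 225 passing genes 34 are in any list, and the lists together hold 856 of the 18194 genes tested.

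**Figure D5:**
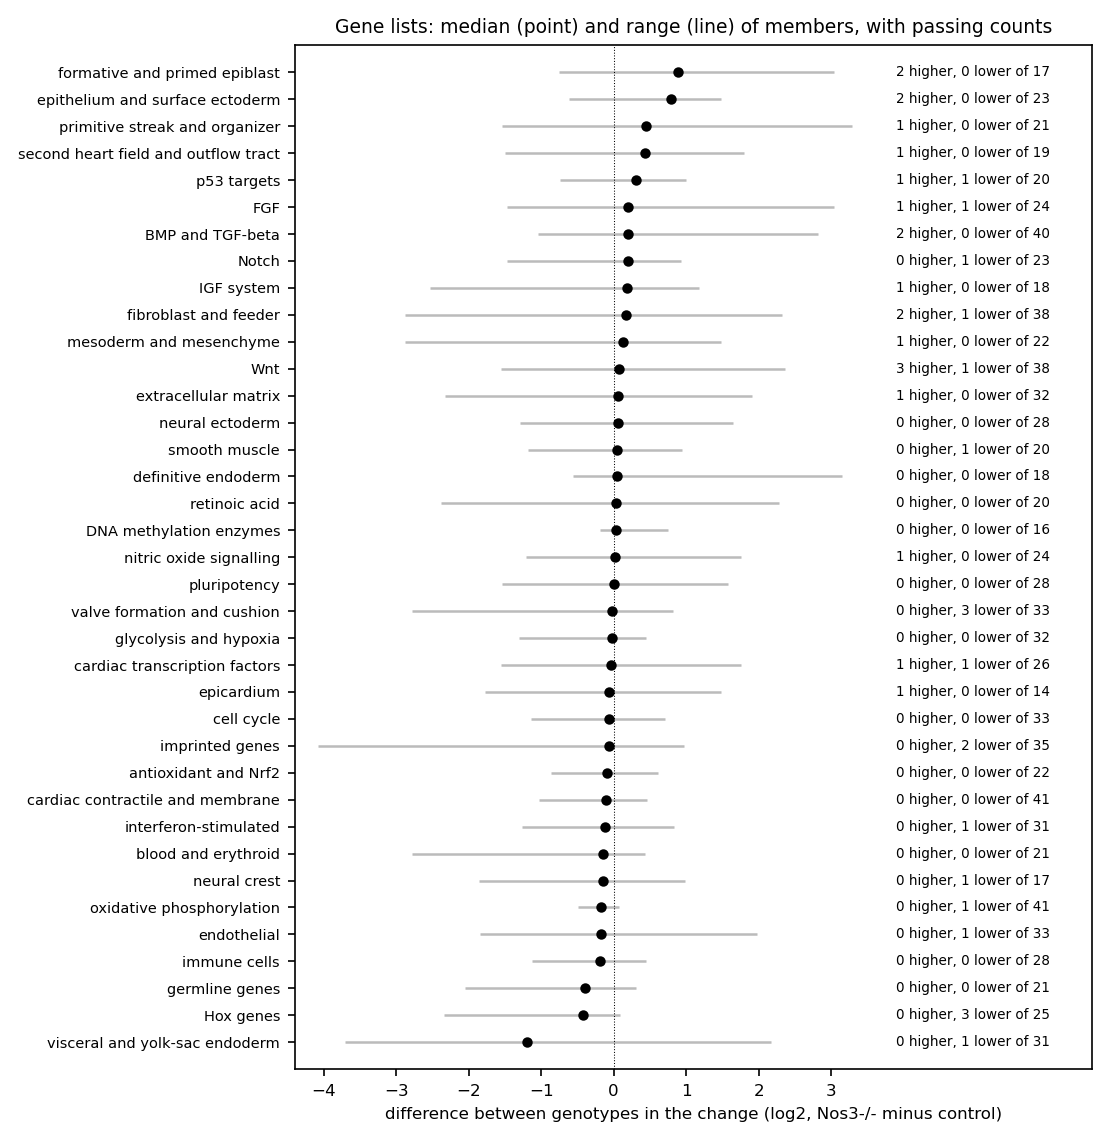
For each of the 37 lists, the point is the median and the line the range of the members' log2 difference in change (Nos3-/- minus control), and the text gives the members that passed. The medians run from -1.20 for visceral and yolk-sac endoderm to 0.89 for formative and primed epiblast, and most lie close to 0.

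Promoters were read as a further property that the comparison did not use. RefSeq promoter windows of 300 bases (GRCm38) matched 65 of the 95 higher genes (83 windows), 100 of the 130 lower genes (124 windows) and 14453 of all genes tested (18110 windows). The TATA motif TATAAA, sought on both strands, was in 9.64% of windows of higher genes, 6.45% of lower ones and 9.77% of all. The octamer ATTTGCAT was in 1.2%, 0% and 1.39%, the GATA motif AGATAA in 2.41%, 5.65% and 8.09%, and the E-box CACGTG in 7.23%, 5.65% and 8.72%. The HNF1 motif (gttaat, any base, attaac) was in 0 windows of each set. None of these shares was above that of all genes tested, and the median GC content was 63.67%, 59.83% and 58.33%. The 100 bases before the start site are printed for 2 lower genes, Postn and Phlda2, and 2 higher genes, Ppbp and Mmp13, since these passing genes carry the motif close to the start, with TATAAA in capitals. They lie at chr3:54361007-54361106 on the plus strand (Postn), chr7:143502525-143502624 on the minus strand (Phlda2), chr5:90768418-90768517 on the plus strand (Ppbp) and chr9:7272414-7272513 on the plus strand (Mmp13).
Postn: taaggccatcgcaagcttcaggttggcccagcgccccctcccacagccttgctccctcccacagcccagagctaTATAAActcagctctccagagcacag
Phlda2: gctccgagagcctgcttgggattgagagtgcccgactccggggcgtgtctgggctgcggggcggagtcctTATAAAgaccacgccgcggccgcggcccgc
Ppbp: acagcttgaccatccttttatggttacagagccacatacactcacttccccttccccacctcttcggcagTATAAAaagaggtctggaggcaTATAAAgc
Mmp13: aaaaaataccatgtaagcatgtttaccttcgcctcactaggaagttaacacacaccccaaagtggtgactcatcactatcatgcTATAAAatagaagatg
The motif starts 26 bases before the start site in Postn, 30 in Phlda2, 30 and 8 in Ppbp and 16 in Mmp13, and its presence is a description of these letters. Ppbp, a platelet chemokine, fell by 2.66 in control and changed by -0.24 in Nos3-/-, a difference of 2.42 (limma adjusted p = 0.0336) lost in 8 omissions with adjusted p up to 0.0784.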

How the data were processed

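RNA of 31 samples was read on Affymetrix arrays, 1 per sample. Per the submitters' processing notes the authors used RMA, with no version given, and the deposited values are log2 intensities, from 2.32 to 15.01, with array medians of 6.13 to 6.23. No batch or scan date is given in the sources used here, and the number of arrays limits the precision. Symbols came from the platform table, which gave several symbols to 932 probe sets and no symbol to 9211. Of the single symbols, 34754 were brought up to date through a gene table of assembly GRCm38.p6.

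limma 3.58.1 (R 4.3.3) fitted 1 mean for each of the 4 groups to the deposited log2 values (27 residual and 2.80 prior degrees of freedom). The 5 contrasts named were tested with two-sided moderated tests and Benjamini-Hochberg adjustment over 18194 genes. Each SE is that of the moderated fit. On simulated data, 58.5%, 82.4% and 96.7% of genes changed 1.5-, 2- and 4-fold were called, and unchanged genes were 5.5% of calls. The simulated noise was normal, independent between genes and equally wide on every array. It held no deviating arrays, so these shares may not carry over to the calls on the real arrays. The naming rule allows Nos3, the 12 highest and 12 lowest passing genes without predicted ones, 4 genes from each of the 4 commonest patterns, from each list up to 3 passing genes per direction and 2 that did not pass, and fixed cell type markers. Genes of the chromosome 10 stretch are outside it. The comparison, the lists (977 of 1027 entries measured) and the rule were chosen with earlier results of these data known, and no list was tested as a set. Alternatives were normalization, filters on low values, probe set choice, variance model, replicate blocks, and omission of each array. A covariate for fibroblast genes and omission of both Nos3-/- arrays numbered 3 were added after seeing the data. Running medians and figures used Python 3.11.15, pandas 2.3.3 and matplotlib 3.10.9.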

Additional observations from a re-analysis of the deposited data

Results flagged for a closer look

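The difference in change was itself a test of whether the genotypes moved differently over time, and 225 genes passed it. In 3 of the 24 leading genes the changes passed in opposite directions: Postn (-2.79), Snai2 (-1.60) and Tesc (-1.51).

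Single arrays lay far from the rest of their group in 11 of 96 gene and group combinations of the 24 leading genes, where chance flags about 1 in 20 groups. Nos3-/- replicate 3 accounted for 6 of them. At day 0 it was highest for Fzd5 (12.64, others 8.84 to 10.16) and Postn (10.50, others 8.73 to 9.36) and lowest for Tek (4.96, others 6.62 to 7.02). At day 11 it was lowest for Fgf5 (8.57, others 10.06 to 10.39), Fzd5 (8.98, others 9.85 to 10.33) and Fzd8 (6.26, others 7.76 to 8.20). The other 5 were control arrays: Ereg on day 11 replicate 6 (5.40, others up to 4.32), Lefty1 on day 0 replicate 1 (12.75, others from 13.22), Pitx1 on day 0 replicate 5 (6.75, others up to 6.29), and Vgll2 on day 0 replicate 7 (7.74, others up to 6.74) and day 11 replicate 4 (7.69, others up to 6.77).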

How the results depend on the processing

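Where a setting gave 1 value per gene and kept the gene, none of the 49 named passing genes changed sign. Of them 8 (Adamts20, Hddc3, Hey2, Hoxd1, Lefty1, Plagl1, Postn and Tdo2) kept their call in every such setting. With every probe set as its own row, single genes were not scored. There a further probe set of Fzd4, Syt7 and Trim12a had the opposite sign (0.12, -0.12 and 0.07). The main probe sets of Cadps2, Igfbp2, Tesc and Thbs2 did not pass there (limma adjusted p = 0.055, 0.053, 0.051 and 0.057). Single omissions gave 88 to 745 genes for the difference, 44 to 243 for those of at least 1 on the log2 scale, 1471 to 4142 for genotype at day 0, 1345 to 2295 at day 11, 5645 to 6641 for the control change and 4391 to 6092 for the Nos3-/- change. Array weights gave 1590 for the difference (315 by 1 or more) and 3939 for genotype at day 11. Without both Nos3-/- arrays numbered 3 the counts were 1315 (335) and 4671 at day 0, and with the fibroblast covariate 29 (21) and 229. Leaving out genes below the median level gave 3835 for control, 3756 for Nos3-/-, 1121 for day 11 and 58 by 1 or more. Every probe set as its own row gave 11846, 10281, 4890 at day 0 and 3276 at day 11. Quantile normalization put 47.1% of passing genes higher and centring on the median 39.2%. When all probe sets of a gene were averaged, Fzd4, Fzd8, Ndufs8, Sema3c, Syt7, Tesc and Trim12a no longer passed; quantile normalization ended the calls of Cadps2 and Thbs2. The causes were not tested. Levels close to the array's floor limit small changes.

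Same-numbered arrays did not deviate together: correlations ran from -0.239 to 0.289 between days and from -0.274 to 0.352 between genotypes. With the number shared by the 4 groups as a replicate block 165 genes passed (37% higher), and with the number within a genotype as the block 217 (36.9% higher), against 225 without a block (42.2%). Of the 225 genes 146 and 151 still passed, and of the 49 named ones 16 and 15 did not. Both blocks ended the calls of Cdh1, Fgf5, Fzd4, Fzd8, Igfbp2, Mmp13, Sema3c, Sesn1, Snai2, Syt7, Tesc and Vgll2. The block over 4 groups also ended those of Cadps2, Esrp1, Pou3f1 and Sema3d, and the block within a genotype those of Fzd5, Ppbp and Wnt6. List medians moved by more than the spread between arrays in 24 of 1591 combinations of list and setting.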
